A study of Mus musculus with 24 samples.

Results

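Late 2-cell (L2C) mouse embryos whose zygotes had been targeted at Ttf1 were compared with wild-type embryos of the same stage, with 4 libraries on each side, 8 of the 24 libraries of the series, chosen by their titles. The 4 Zfp622 knockout L2C libraries and the Ttf1 knockout and wild-type morulae served as reference points. Zygotes for the knockouts came from superovulated B6D2F1 females, 3 to 4 weeks old, and B6D2F1 males. They received Cas9 protein at 100 ng per µl and 3 guide RNAs at 50 ng per µl each by injection into the cytoplasm, done in M2 medium with CB, and were then cultured in KSOM. The strain labels of the samples count upward from B6D2F1. Each library pooled 10 embryos, so a knockout library can mix embryos and cells with different edits. Wild-type titles carry the letters NC, and the labels do not say whether those zygotes were injected. Polyadenylated RNA was copied with oligo-dT and template switching and cut into libraries by a transposase, without molecular identifiers. The 8 libraries held 10538723 to 12686381 counted read pairs. Levels are given as CPM, counts scaled by library size with TMM factors, and errors are SD over 4 libraries. A gene was called where edgeR's quasi-likelihood test, adjusted over all genes by Benjamini-Hochberg, gave 0.05 or less. The labels describe 4 replicates of 10 embryos each, and the p-values measure the spread between these pools. In a pool of embryos, fewer cells of a type and less RNA per cell cannot be told apart.

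TTF1 binds terminator elements beside the ribosomal RNA genes, where it stops RNA polymerase I, and it also takes part in setting the chromatin state of those genes. The late 2-cell embryo has just passed the main activation of its own genome: RNA stored in the oocyte is being degraded, and the nucleolus starts to form around active ribosomal RNA genes. Making ribosomes needs all 3 nuclear RNA polymerases, one of which transcribes the messengers of ribosomal proteins and assembly factors that a polyadenylated library can measure. The ribosomal RNA precursor itself is not measured by such a library.

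Before the results, 2 properties of the libraries need stating. The alignment file names in the headers place every Ttf1 knockout library on lane 1 and the remaining libraries on lane 2, so lane and Ttf1 targeting cannot be told apart in any contrast with this group. The first principal component of the 8 libraries (23% of the variance) placed the 4 wild-type libraries on one side and the 4 knockout libraries on the other, and on the second (16.3%) wild-type library 2 and knockout library 1 lay at opposite ends. Transcripts of the oocyte and of the 2-cell stage were present. Zp3, an oocyte coat gene, lay between 93.1 and 121 CPM in all 8 libraries. Zscan4d, a gene of the 2-cell stage, lay between 46.3 and 125 CPM. These levels were not compared with another stage, so the stage rests on the labels. Summed markers of cumulus and granulosa cells ran from 92.2 to 114 CPM in wild type and from 102 to 122 in the knockout, with 22 of 31 below 1 CPM in every library and Inha, Hsd3b1, Btc and Pgr at 0. Sperm markers summed to 47.3 to 58.7 and 48.9 to 58.8 CPM, and blood markers to 16.4 to 25.3 and 16.5 to 31.5 CPM, with Hbb-bs and Tyrobp among those at 0. None of the 20 tested markers of these 3 cell types (9, 5 and 6) was called.

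Ttf1 itself (chromosome 2, 29060262 to 29087656 on the plus strand, GRCm38) was lower in every knockout library. It stood at 94.7, 90.4, 83.3 and 94.2 CPM in wild-type libraries 1 to 4 and at 32.8, 27.5, 38.9 and 33.5 CPM in the knockout. The groups are far apart, and 36.6% of the wild-type mean was left (log2 fold change -1.45, SE 0.11, adjusted p = 3.21e-07). In the Zfp622 knockout the same transcript was at 84.1, 94.5, 93.2 and 88 CPM, inside the wild-type range. A transcript that carries a small edit is still counted, so these values say nothing of the protein.

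The response around it was small. Of 16770 genes tested, 258 were called (1.54%), 124 higher (0.739%) and 134 lower (0.799%), and 2676 had an unadjusted p under 0.05. With libraries scaled by total counts the split was 141 higher and 96 lower, the median over all genes moved from 0.0018 to 0.03, and 9 ribosomal protein genes were called in place of 16. Among the called genes 160 differed by less than 1.5-fold, 75 by 1.5- to 2-fold and 23 by more, with a median absolute log2 fold change of 0.51. The called set held 214 protein-coding genes, 23 pseudogenes and 10 lincRNAs. For 246 of the 258 no knockout library reached into the wild-type range, against 9.94% of all genes tested. This follows largely from the choice of the 258 by a test on the same libraries and is no further support. The count moved with single libraries: it was 60 without wild-type library 2, 66 without wild-type library 4, 77 without knockout library 4, 99 without knockout library 2, 114 without wild-type library 3 and 127 without knockout library 3. In all 8 such fits 43 genes were called, 20 higher and 23 lower, and these are the firmest part of the comparison.

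Zfp948, a zinc finger gene with a KRAB repressor domain, had the smallest p after Ttf1. It stood at 84.2, 86.6, 88.2 and 93.8 CPM in wild type and at 168, 156, 162 and 174 CPM in the knockout (log2 fold change 0.90, SE 0.08, adjusted p = 3.54e-06). The spread within each group was a small part of the distance between them. Rnf44, which encodes a RING finger protein, rose from 52.5, 45.8, 47.3 and 44.5 CPM to 91.1, 83.3, 83.1 and 91.9 (0.88, SE 0.12, adjusted p = 0.00137). Pitpnb, a transfer protein for phosphatidylinositol, rose from 133, 133, 148 and 112 to 232, 257, 208 and 218 CPM (0.80, SE 0.11, adjusted p = 0.00137). Both pairs of groups were separated by a wide gap.

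Genes of membranes, organelles and vesicle traffic were among the other rises called in all 8 fits. Rab20, a small GTPase of phagosomes and endosomes, rose from 450 ± 42.5 to 654 ± 26 CPM (log2 fold change 0.54), and Rab7, the GTPase of late endosomes, from 297 ± 13.5 to 408 ± 21.1 (0.46). Ghitm, a protein of the inner mitochondrial membrane, was at 258, 267, 247 and 268 CPM in wild type and 343, 376, 395 and 352 in the knockout (0.50, SE 0.07, adjusted p = 0.00186). Hacd2, an enzyme of very long chain fatty acid synthesis, rose from 18 ± 2.66 to 32.2 ± 3.67 CPM, and Cptp, a ceramide-1-phosphate transfer protein, from 186 ± 27.1 to 280 ± 31.6. Wdr77, the partner of the arginine methyltransferase PRMT5, rose from 149 ± 7.65 to 207 ± 19 CPM. These genes were grouped after their values were seen, and no list of this kind was tested.

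The following falls, called in all 8 fits, were put together after their values were seen, and no theme was tested. Ppig, a cyclophilin that binds splicing factors, was at 528, 626, 546 and 577 CPM in wild type and 403, 360, 388 and 314 in the knockout (log2 fold change -0.64, SE 0.09, adjusted p = 0.00184). Magoh, a core protein of the exon junction complex, fell from 1042 ± 102 to 786 ± 36 CPM. Mphosph8, a reader of repressive histone methylation, fell from 80.7 ± 7.56 to 50.1 ± 6.63 CPM, and Ncor1, a nuclear receptor corepressor, from 102.6 ± 4.04 to 72.8 ± 2.66. Cenps, a centromere and DNA repair protein, had a very narrow spread in the knockout (167, 167, 169 and 167 CPM, against 205, 247, 217 and 254). Sp3os, a noncoding RNA on the strand opposite the transcription factor gene Sp3, was at 228, 194, 159 and 183 CPM in wild type and 103.1, 102.1, 104.97 and 101.99 in the knockout (-0.89, SE 0.10, adjusted p = 0.00028). The counting used no strand option, so reads from Sp3os and from Sp3 where they overlap cannot be told apart. Sp3 had 153 ± 13.4 against 133 ± 18.3 CPM and was not called (adjusted p = 0.335).

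**Figure D1:**
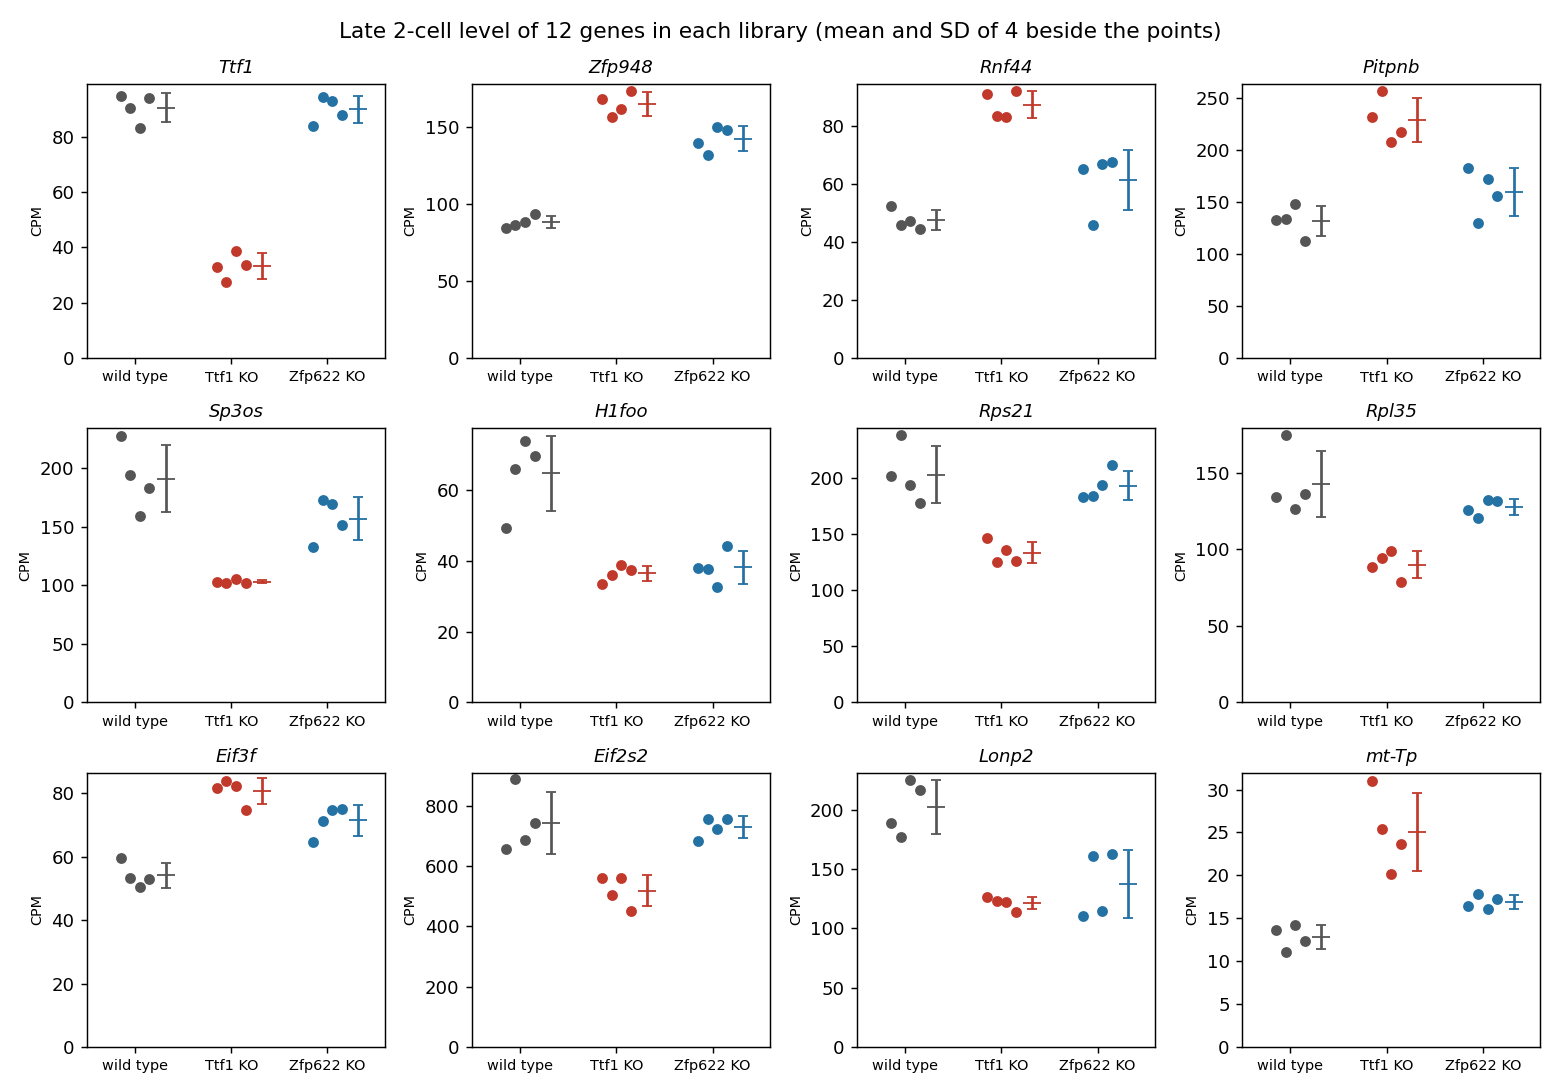
Level (CPM, linear axis from 0) of 12 genes in each of the 4 wild-type, 4 Ttf1 knockout and 4 Zfp622 knockout late 2-cell libraries, 1 point per library, with the mean and SD beside the points. Ttf1 is lower in the Ttf1 knockout alone (27.5 to 38.9 CPM), while Zfp948 and H1foo are displaced from wild type in both knockouts.

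Among the genes named by rule, many of the larger folds came from low levels. Ric8b, a chaperone of G protein alpha subunits, was at 1.4, 2.41, 1.74 and 1.63 CPM in wild type and 3.05, 7.64, 5.08 and 6.72 in the knockout (log2 fold change 1.65, SE 0.32), a call kept in 5 of the 8 fits. Hsd17b10, Tmc6, Pycr1, G6pc3 and Tfcp2l1 rose by 1.26, 1.15, 1.11, 1.00 and 0.99 on the log2 scale, from 2.87, 3.27, 3.67, 3.45 and 5.22 CPM, and were called in 1, 2, 3, 1 and 4 of the 8 fits. Porcn, the enzyme that lipidates Wnt proteins, Naxd, which repairs damaged NADH, and Slc5a11, an inositol transporter, rose by 0.94, 0.90 and 0.88. Falls at low levels included Ccdc173 (9.4 to 5.16 CPM), Glrx, a glutaredoxin (9.45 to 5.37), and Klf10, a zinc finger factor induced by TGF-beta (26.3 to 14.1), called in 1, 1 and 0 of the 8 fits. None of these is as firm as the genes above. The deepest called fall was that of Gm6502, a predicted gene outside the rule, from 3.26 ± 1.14 to 0.662 ± 0.212 CPM (-2.28, SE 0.40), called in all 8 fits.

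Transcripts of the X chromosome stood higher in the knockout. Of 616 X-linked genes tested, 21 were called higher and 2 lower (3.41% and 0.325%, against 0.739% and 0.799% of all genes), and their median log2 fold change was 0.13 against 0.0018 over all genes. Complete separation of the libraries was seen for 11.04% of X-linked genes on the higher side (all genes, 4.87%) and 2.76% on the lower side (5.07%). Hnrnph2, an RNA-binding protein gene, was at 94.7, 96.9, 108.1 and 85.5 CPM in wild type and 149, 156, 149 and 141 in the knockout (log2 fold change 0.63, SE 0.10, adjusted p = 0.00348). Idh3g, a subunit of mitochondrial isocitrate dehydrogenase, rose from 157, 110, 146 and 141 CPM to 220, 220, 198 and 183 (0.57). Magea8, a cancer-testis antigen gene, rose from 1.14, 0.386, 0.914 and 0.488 CPM to 5.62, 5.88, 4.4 and 2.01 (2.59, SE 0.41). These are the 3 X-linked genes called in all 8 fits. Cenpi of the centromere, the kinase gene Araf, the copper transporter gene Atp7a, the proton pump subunit gene Atp6ap2 and the cofactor gene Hcfc1 rose by 0.52, 0.52, 0.41, 0.43 and 0.47. The falls were Dppa3-ps, a processed copy of Dppa3, and Gm14681.

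Xist and the Y-linked genes moved in opposite directions in the same libraries. Xist, the RNA that coats and silences an X chromosome in female cells, was at 3.33, 4.73, 5.85 and 1.79 CPM in wild type and 13, 24.2, 12.4 and 7.33 in the knockout (log2 fold change 1.87, SE 0.39, adjusted p = 0.0311). Uty, a Y-linked histone demethylase gene, was at 32.9, 32.5, 33.6 and 33 CPM in wild type and 22.5, 15.8, 25.7 and 17.2 in the knockout (-0.70, SE 0.15, adjusted p = 0.0244). Usp9y, a Y-linked deubiquitinase gene, fell from 27.5 ± 5.51 to 17 ± 2.49 CPM, and Eif2s3y, the Y-linked copy of a translation initiation subunit, by 0.77 on the log2 scale. Of 12 Y-linked genes tested these 3 were called, all lower (25%, against 0.799% of all genes), with a median of -0.49. Ddx3y, Zfy1, Kdm5d and Zfy2 had -0.58, -0.55, -0.28 and 0.07 without a call. Summed over 7 Y-linked genes, the wild-type libraries had 106.8, 143, 138 and 114 CPM and the knockout libraries 86.3, 62, 97 and 79.8, with no overlap. The Zfp622 knockout had a mean between theirs, at 86.3, 96.3, 91.7 and 106.8 CPM, with Xist at 9.38, 9.4, 8.73 and 4.43. These calls rest on single libraries: none of the Y-linked genes was called without wild-type library 2 or 3 or knockout library 2 or 4, and 1 was without wild-type library 4 or knockout library 3.

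Y-linked RNA comes from male embryos and Xist from female ones, but the sex of the pooled embryos is not in the labels. When the summed Y-linked level of each library was added to the model, a setting chosen after these values were seen, 3 genes were called in place of 258: Ttf1 (adjusted p = 0.0153), Zfp948 (adjusted p = 0.0153) and Calml4 (adjusted p = 0.0406). The Y-linked sums do not overlap between the groups, so this term and the genotype share much of their variation. In that fit the median of the X-linked genes was 0.06 and that of the ribosomal protein genes -0.20. The part of embryo sex in the other results was not tested further. X-linked genes made up 3.07% ± 0.0886 of all counts in wild type and 3.36% ± 0.139 in the knockout, with no overlap between libraries (exact two-sided permutation p = 0.0286, the smallest that 4 against 4 can give, adjusted p = 0.0857 over 3 gene classes). The share was 3.25% ± 0.129 in the Zfp622 knockout. Without wild-type library 2 the X-linked calls went from 23 to 4 and the median to 0.09. They numbered 5 without wild-type library 4, 6 without knockout library 2, 10 without knockout library 4, and 12 without wild-type library 3 or knockout library 1 or 3.

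**Figure D2:**
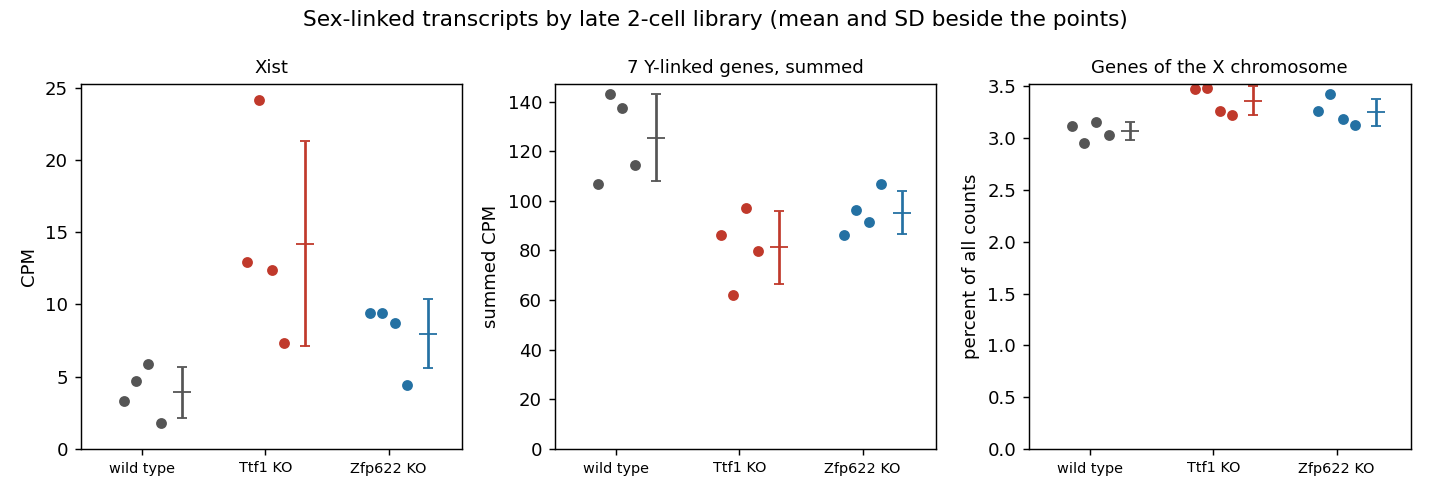
Xist (CPM), the summed level of 7 Y-linked genes (CPM) and the share of all counts from X-linked genes (percent) in each late 2-cell library, with mean and SD of 4 libraries beside the points and all axes from 0. All 4 Ttf1 knockout libraries lie above the wild-type libraries for Xist and the X share and below them for the Y-linked sum, and the means of the Zfp622 knockout lie between.

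Transcripts of cytosolic ribosomal proteins were the largest called group with one direction among the 37 gene lists. Of 82 members tested 16 were called, all lower, and the median log2 fold change was -0.19. Over all genes 0.799% were called lower. At an unadjusted p under 0.05, 38 were lower and 1 was higher, and 2676 of all 16770 genes reached that level in either direction. Rps21, a protein of the small subunit (chromosome 2, 180257377 to 180258445), was at 202, 239, 194 and 178 CPM in wild type and 146, 126, 136 and 127 in the knockout (-0.61, SE 0.09, adjusted p = 0.00348). Rpl35 of the large subunit (chromosome 2, 39001580 to 39005624) was at 134, 174, 126 and 136 CPM and then 88.4, 94.6, 98.7 and 78.7 (-0.66, SE 0.10). Rps24 (chromosome 14) went from 496, 596, 490 and 477 to 391, 399, 364 and 334 CPM, and Rps7 (chromosome 12), which binds the p53 regulator MDM2 when free of ribosomes, from 298, 382, 287 and 298 to 227, 244, 225 and 231. These 4 were called in all 8 fits. Rps26, Rps3a1 and Rpl37a followed with falls of 0.39, 0.39 and 0.42 on the log2 scale, and Rpl41, the most abundant called member, fell from 3026 ± 213 to 2461 ± 76.8 CPM. On the other side, the libraries of Rpsa, the laminin receptor and small subunit protein, did not overlap (172, 161, 154 and 161 against 210, 233, 224 and 271 CPM) and it was not called (0.53, adjusted p = 0.115).

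Messengers of ribosomal proteins are known for a tract of pyrimidines at their first bases, through which their translation is set by growth signals. The surroundings of a listed start are shown for that reason for the members called in all 8 fits. The windows run from 30 bases before to 20 bases after a RefSeq start on GRCm38.p6, on the strand of the gene. The longest run of C and T letters is in capitals, and where a gene has several listed starts the one with the longest run is given.
Rpl35 (chr2:39005112-39005161, minus strand): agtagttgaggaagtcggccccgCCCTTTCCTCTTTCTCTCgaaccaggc
Rps21 (chr2:180257349-180257398, plus strand): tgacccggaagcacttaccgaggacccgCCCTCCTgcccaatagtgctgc
Rps24 (chr14:24490723-24490772, plus strand): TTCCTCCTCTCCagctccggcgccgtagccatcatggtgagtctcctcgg
Rps7 (chr12:28635934-28635983, minus strand): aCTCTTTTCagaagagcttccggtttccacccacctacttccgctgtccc
A run of at least 8 such letters on the gene's strand stood in 6 of 16 start windows of the called ribosomal protein genes (37.5%, 13 genes matched) and in 28 of 56 of those not called (50%, 48 genes matched). It stood in 20.2% of the 32851 start windows of the table. A run anywhere in the window is thus frequent in the family as a whole, and the called members hold it no more often than the others in these counts. The counts do not measure a tract at the first bases of a messenger, since most of each window lies before the listed start. The longest run covers the listed start in Rpl35 and in Rps21, where it has 7 letters and so falls short of 8, and it lies upstream of the start in Rps24 and Rps7.

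Single libraries varied. Below the wild-type mean lay 63, 59, 70 and 69 of the 82 members in knockout libraries 1 to 4, and 39, 12, 66 and 63 in wild-type libraries 1 to 4, so a count of members does not separate the groups, while the medians do. The median of the 82 genes, as log2 CPM minus the wild-type mean, was -0.13, -0.10, -0.26 and -0.21 in knockout libraries 1 to 4, and 0.0048, 0.14, -0.06 and -0.07 in wild-type libraries 1 to 4. In the Zfp622 knockout it was 0.03, -0.08, 0.06 and 0.06. Wild-type library 2 was thus the highest of all 12, and without it 4 members were called in place of 16, with a median of -0.15. There were 6 without knockout library 4, 7 without knockout library 3 or wild-type library 4 and 8 without knockout library 2 or wild-type library 1. The comparison with the Zfp622 knockout uses no wild-type library but the same 4 Ttf1 knockout libraries, so it is not independent. There 1 member was called (Rps21, log2 difference -0.53, adjusted p = 0.0355) and the median was -0.22. At an unadjusted p under 0.05, 48 members were lower, and 1362 of all 16770 genes reached that level in either direction. Short genes as a class were lower too: the shortest eighth of all tested genes (up to 963 bases of exon) had a median of -0.18, and the 1586 coding genes of the shortest coding eighth that are not ribosomal protein genes had -0.07, against -0.21 for the 43 ribosomal protein genes in the same length range. With the trend over length removed, 10 members were called and the median was -0.17. Near-identical processed copies of these genes exist in the genome, and reads that map to several places were not counted, so levels of single members are uncertain.

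**Figure D3:**
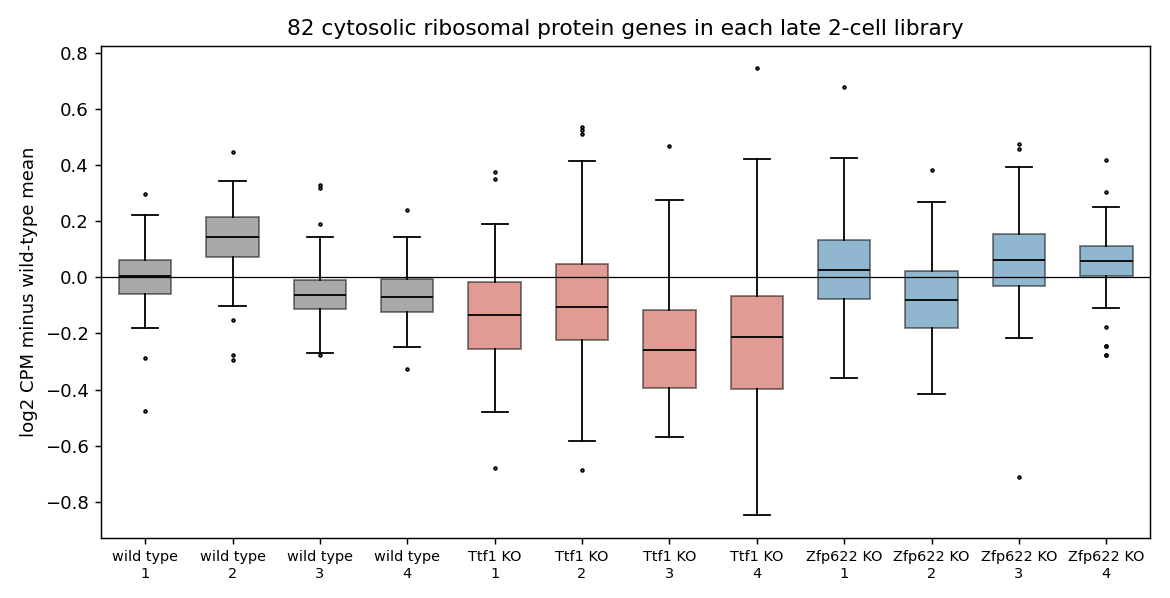
Log2 CPM minus the wild-type mean for 82 cytosolic ribosomal protein genes in each of 12 late 2-cell libraries. The line in each box is the median, the box spans the quartiles, whiskers reach to 1.5 box lengths and dots lie beyond. The medians of the 4 Ttf1 knockout libraries (-0.10 to -0.26) lie below those of the other 8.

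Rps21, Rpl35, Ppig, Sp3os, Eif2s2, Esf1, Zfas1, Pfdn4, Tpx2 and Ccdc173 all lie on chromosome 2 distal to Ttf1. Of 1015 tested genes there, 22 were called lower and 4 higher (2.17% and 0.394%, against 0.799% and 0.739% of all genes), with a median of -0.11. The 192 proximal genes had 1 and 1 called, with a median of -0.03. Against the Zfp622 knockout the 2 medians were close, at -0.11 distal and -0.09 proximal. Against wild type, the 81 genes at 0 to 20 Mb, proximal to Ttf1, had a median of -0.10. The 245 genes at 20 to 40 Mb, where Ttf1 lies, had -0.03. Where along the chromosome the lower levels begin was not tested. The median of the whole chromosome, -0.09, was the lowest of the 19 autosomes, whose other medians ran from -0.04 to 0.05. The share of all counts from the distal genes was 5.36% ± 0.117 in wild type and 4.98% ± 0.333 in the knockout (exact permutation p = 0.114, adjusted p = 0.171), and knockout library 3 was at 5.44%, inside the wild-type range. Ribosomal protein genes off chromosome 2 had 14 of 78 called lower, with a median of -0.19. Whether a change of the chromosome itself has a part in the falls named here was not tested.

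Among the genes of RNA polymerase I and its factors, Taf1d was the called member besides Ttf1. Taf1d, a subunit of the promoter selectivity factor and host of several small nucleolar RNAs, was at 528, 568, 506 and 638 CPM in wild type and 474, 388, 388 and 424 in the knockout (log2 fold change -0.42, SE 0.10, adjusted p = 0.044), a call kept in 1 of the 8 fits. Of 30 members, Ttf1 itself among them, 21 had a negative log2 fold change, and the median was -0.11. Over all genes 50.3% had a positive one, and the median was 0.0018. The 2 called members were 6.67% of the list, against 1.54% of all genes. Whether these shares differ was not tested. Rrn3, the initiation factor that responds to growth, had 635 ± 53.8 against 530 ± 35.1 CPM (adjusted p = 0.0849), and Znrd1, a polymerase I subunit, 153 ± 6.91 against 125 ± 13 (adjusted p = 0.0773). The largest subunit Polr1a, with -0.03, the chromatin factor Ubtf, with -0.12, and Baz2a, the partner of TTF1 in silencing, with 0.05, were far from a call.

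Assembly factors of the ribosome split. Called in either direction were 7.58% of the small subunit list and 4.29% of the large subunit list, against 1.54% of all genes. For the small nucleolar RNA hosts and the translation factors below the shares were 7.69% and 4.84%. Whether these shares differ from that of all genes was not tested. For the small subunit, Tbl3 (124 ± 11.7 to 171 ± 8.09 CPM), Imp4 (267 ± 11.7 to 333 ± 14) and Dimt1 were higher, and Esf1 and Utp11 lower, out of 66 members with a median of 0.0044. For the large subunit, Brix1, Ebna1bp2 and Znhit6 were lower, each by 0.32 to 0.33 on the log2 scale, out of 70 members with a median of -0.03. The list of small nucleolar RNA hosts had 26 tested members. Zfas1, at 58.3, 46.3, 60.8 and 48 CPM against 39.5, 30.1, 27.1 and 29.8, and Taf1d were lower, and the median was -0.22. Nop56, Ncl and Snhg1 had -0.32, -0.28 and -0.38 with adjusted p of 0.0513, 0.0569 and 0.0689. Among translation factors Eif3f rose (59.7, 53.5, 50.6 and 53.1 to 81.8, 84, 82.5 and 74.7 CPM), while Eif2s2, the beta subunit of the factor that carries initiator tRNA, and Eif5b, which joins the subunits, fell by 0.52 and 0.37. None of the 78 mitochondrial ribosomal protein genes and 38 aminoacyl-tRNA synthetases was called in edgeR (DESeq2 called 3 and 3, and 13 and 5 had an unadjusted p under 0.05).

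A pair of small RNAs was called as well, and their sequences are shown because reads from such short genes are few and depend on what the library can capture. Snora57 is an H/ACA small nucleolar RNA, a class that guides pseudouridine formation. The capitals mark the ACA box near its end. The proline tRNA of the mitochondrial genome, mt-Tp, lies on the light strand, and the capitals mark its anticodon. Both are written as DNA from the GENCODE M21 transcripts on GRCm38.
Snora57 (chr19:8888538-8888685, minus strand): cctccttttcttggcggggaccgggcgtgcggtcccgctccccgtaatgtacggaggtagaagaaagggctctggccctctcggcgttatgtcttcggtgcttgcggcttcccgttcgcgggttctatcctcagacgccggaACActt
mt-Tp (chrMT:15356-15422, minus strand): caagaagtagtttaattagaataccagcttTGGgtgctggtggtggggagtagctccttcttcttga
Snora57 fell from 16.9, 17.2, 18.9 and 17.1 CPM to 11, 8.73, 9.91 and 9.87 (log2 fold change -0.83, SE 0.18, adjusted p = 0.0241), a call kept in 2 of the 8 fits. Its sequence has no poly(A) tail of its own, and it overlaps the coding gene Lbhd1 on the other strand. mt-Tp rose from 13.7, 11.1, 14.2 and 12.4 to 31, 25.4, 20.2 and 23.7 CPM (0.96, SE 0.15, adjusted p = 0.00348) and was called in all 8 fits. It was the 1 called gene of 32 tested in the mitochondrial genome (3.1%, against 1.54% of all genes). The messengers of that genome had a median of 0.16 over 13 genes. As the counting used no strand option, RNA of either strand at mt-Tp is counted. The mitochondrial share of counts was 5.82% ± 0.226 and 6.25% ± 0.583 (exact permutation p = 0.229, adjusted p = 0.229).

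Of the genes listed as oocyte transcripts, a few were called lower. The counts do not separate RNA stored in the oocyte from RNA newly made by the embryo. H1foo, the linker histone of the oocyte, was at 49.5, 66, 73.9 and 69.8 CPM in wild type and 33.6, 36, 38.9 and 37.5 in the knockout (log2 fold change -0.83, SE 0.13, adjusted p = 0.00348). Dppa3, a maternal protein that protects DNA methylation in the zygote, was at 3986, 5432, 4920 and 5149 CPM and then 3541, 3615, 3587 and 3098 (-0.49, SE 0.08, adjusted p = 0.00716). Both pairs of groups are separate, and both genes were called in all 8 fits. Bcl2l10, a survival gene of the oocyte, fell from 301 ± 44.3 to 196 ± 12.6 CPM and Elobl, an oocyte gene related to elongin B, from 191 ± 30.2 to 141 ± 10.3. These 4 of 72 members were called, against 0.799% of all genes called lower, and 52 members had a negative log2 fold change (median -0.13), while 50.3% of all genes had a positive one. Lonp2, a protease of peroxisomes that is in no list, fell from 189, 177, 226 and 217 CPM to 126, 123, 122 and 114 (-0.74) and was called in all 8 fits.

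Genes of the burst of transcription at the 2-cell stage had the lowest median of the lists apart from the Y-linked one, -0.35 over 52 members, but 1 was called. Obox2, a homeobox gene, fell from 39.1, 50.3, 46.9 and 49.5 to 35.2, 31.7, 26.9 and 33.3 CPM (log2 fold change -0.55, adjusted p = 0.0245). Tcstv3 had 460, 313, 449 and 525 CPM in wild type and 325, 191, 260 and 235 in the knockout (adjusted p = 0.204), with overlap, and Zscan4c had 15.5 to 42.8 CPM in the knockout against 24.5 to 37.0. The spread between pools was wide for such genes, which are transcribed for a short time. The Zfp622 knockout, compared with the same wild-type libraries, had a median of -0.31 for this list.

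The p53 targets had about the share of calls of all genes (1.54%). Of 49 tested, none was called higher, and Polh, a translesion DNA polymerase gene, was called and was lower (134 ± 8.76 to 104.5 ± 3.35 CPM), and the median was 0.07. Cdkn1a, the cell cycle inhibitor, had 74, 84.2, 80 and 57.5 CPM in wild type and 69.7, 116, 56.8 and 82.3 in the knockout (0.14, SE 0.23, adjusted p = 0.827), with full overlap. Mdm2, the ligase that degrades p53, had 0.03 (SE 0.08), Trp53inp1, a cofactor of p53, 0.17 (SE 0.08) and Ccng1, a cyclin induced by p53, 0.39 (SE 0.17), and none was called.

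Other processes gave 1 to 3 called members each. In the lists with a call named here these were 2.38% to 6.90% of the members, against 1.54% of all genes. Whether such shares differ was not tested, and lists without a call come last. In the cell cycle lists Cenpi and Rrm1, a subunit of ribonucleotide reductase, were higher, and Tpx2, a spindle factor, Pttg1, securin, and Gmnn, the inhibitor of replication licensing, were lower, out of 61 mitosis and 55 replication genes. In the stress lists (26, 29 and 42 genes tested) Pycr1, an enzyme of proline synthesis, and Creld2 were higher. Manf and the prefoldin subunit gene Pfdn4 were lower, so there was no common direction. Psmb5 of the proteasome (142 ± 7.43 to 192 ± 6.57 CPM) and Ocln, the tight junction protein occludin, were higher, each from a list of 40 tested genes. Ndufc1 and Cox6c of the respiratory chain were lower, out of 75. Tfcp2l1, a factor of naive pluripotency, was higher. In 14 of the 37 lists no member was called in edgeR, the lists of DNA repair, glycolysis, sterol synthesis, trophectoderm, primitive endoderm and interferon genes among them. At an unadjusted p under 0.05 those 6 lists had 11, 5, 4, 4, 2 and 2 members, and DESeq2 called 3, 1, 1, 0, 0 and 1.

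**Figure D4:**
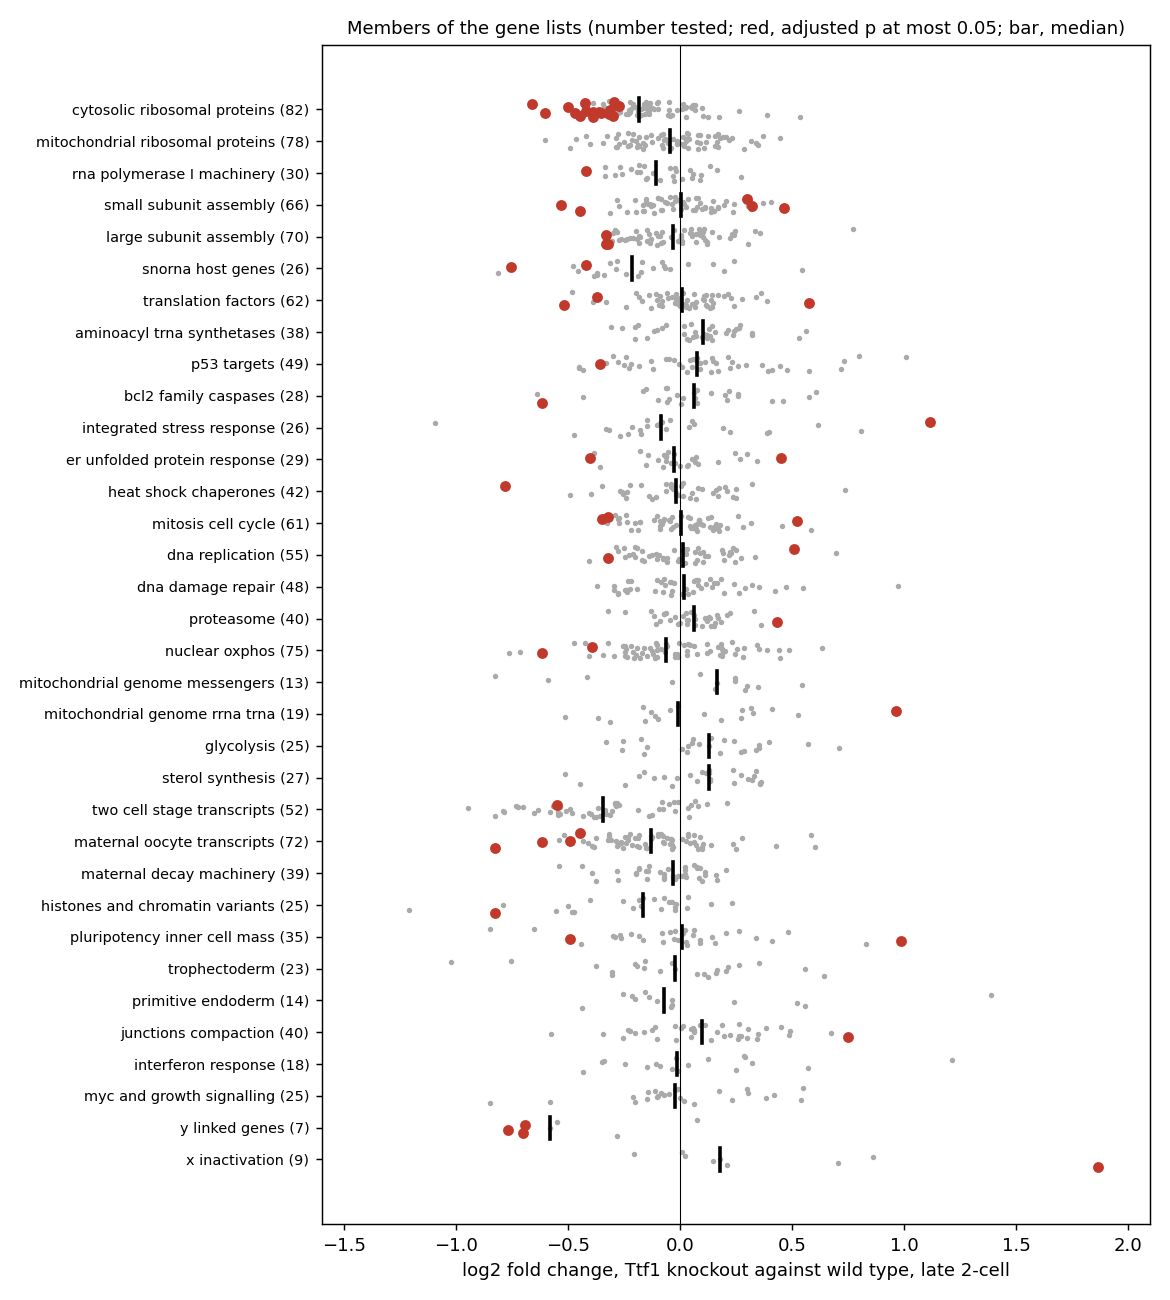
Log2 fold change (Ttf1 knockout against wild type, late 2-cell) of the tested members of 34 gene lists, 1 point per gene. Red points are called, black bars are list medians, the number of members tested is in brackets, and Ttf1 (-1.45) is not drawn. Called ribosomal protein and maternal genes all lie to the left of 0. Other lists have called members on a single side, as the Y-linked and large subunit lists do, on both sides, or none.

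The direct comparison with the Zfp622 knockout embryos of the same stage, which had also been injected, gave 6 called genes of 16770 (0.0358%). They were Ttf1, Zfp622, Sp3os (log2 difference -0.60, adjusted p = 0.0355), Rps21, Gm2423 and Gm10697. Gm2423, a processed pseudogene, stood at 8.96, 8.14, 8.1 and 9.6 CPM in the Ttf1 knockout, at 2.98, 2.99, 4.02 and 2.28 in wild type and at 4.06, 3.61, 2.34 and 2.61 in the Zfp622 knockout. Gm10697 was at 11.6 ± 1.92 CPM in the Ttf1 knockout and 3.09 ± 1.59 in the Zfp622 knockout, and was not called against wild type (5.63 CPM, adjusted p = 0.0737). Of the 258 genes called against wild type 4 were also called against the Zfp622 knockout, and 174 had an unadjusted p under 0.05 there (1362 of all genes did). Both comparisons use the same Ttf1 knockout libraries, so these tallies are not independent. The median absolute log2 difference of the 258 was 0.51 against wild type, by which they were chosen, and 0.29 against the Zfp622 knockout. Some called genes had close levels in both knockouts: H1foo was at 36.5 and 38.2 CPM (adjusted p = 0.95 for the difference), Uty at 20.3 and 21.4, Tfcp2l1 at 10.4 and 11.2, Klf10 at 14.1 and 14.8 and Ric8b at 5.62 and 5.12. Others were nearer to wild type in the Zfp622 knockout, such as Eif2s2 (519 against 730 CPM, adjusted p = 0.0659) and Cenpi (80 against 60.6). For Zfp948 the 3 means were 88.2 in wild type, 165 in the Ttf1 knockout and 142 in the Zfp622 knockout (adjusted p = 0.487 between the knockouts). A difference that was not called does not show that the knockouts act alike.

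Morulae of the same genotypes come from other libraries, and there the Ttf1 knockout changed far more genes. At morula 39.2% of the genes tested there were called, and of the 12990 genes tested at both stages 40.7% were, 21.6% higher and 19.1% lower. Of the 124 genes called higher at L2C, 31 were higher at morula (25%) and 25 lower (20.2%). Of 127 called lower at L2C and tested at morula, 31 were lower (24.4%) and 27 higher (21.3%). In all 62 of 251 were called in the same direction and 52 in the opposite one, so the shares lay within a few percentage points of those of all genes. The effect itself differed between the stages for 152 of the 258 genes, against 21.2% of all genes in that test, and part of this follows from choosing genes by their L2C effect.

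Zfp948, Rnf44, Pitpnb and mt-Tp were higher at both stages, with log2 fold changes at morula of 0.81, 0.69, 0.33 and 1.05. Ttf1, Esf1, Utp11, Tpx2, Pttg1, Klf10 and Glrx were lower at both. Sp3os turned from -0.89 to 1.08, Lonp2 from -0.74 to 0.73 and Dppa3 from -0.49 to 0.46, with adjusted p for the change of 6.74e-09, 2.53e-06 and 3.46e-06. For the ribosomal protein genes the median went from -0.19 to 0.26, and the change of effect was called for 52 of 82, 51 of them upward. Short genes turned as well: the shortest eighth of all genes went from a median of -0.18 to 0.23, and the short coding genes that encode no ribosomal protein from -0.07 to 0.14. The p53 effectors, not called at L2C, had large changes of effect: Cdkn1a went from 0.14 to 2.63 (adjusted p for the change 4.27e-05), Trp53inp1 from 0.17 to 2.04 and Mdm2 from 0.03 to 1.72. The X-linked genes had a median of 0.14 at morula too, while Xist was not called there (0.37, adjusted p = 0.586). The lane difference between the groups is the same at both stages.

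**Figure D5:**
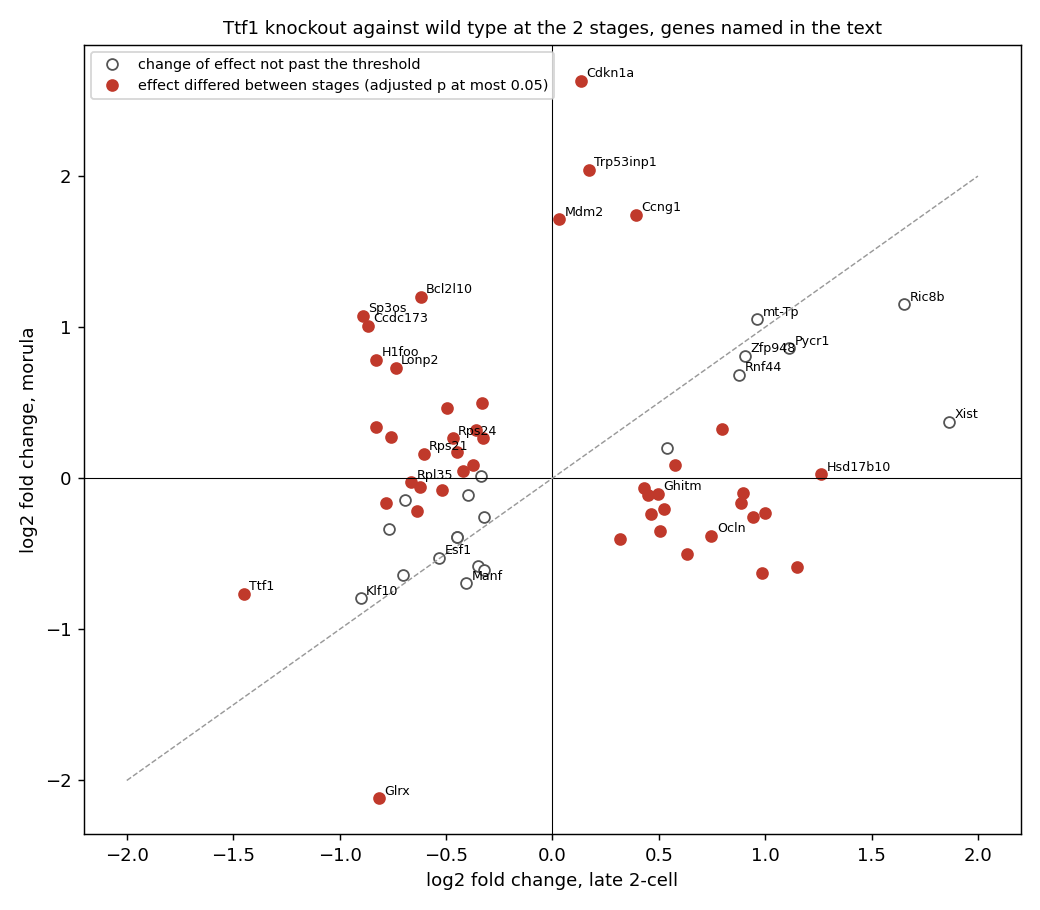
Log2 fold change of the Ttf1 knockout against wild type at the late 2-cell stage (x axis) and at the morula stage (y axis) for the genes named by rule, 1 point per gene, with equal effects on the dashed line. Filled points are genes whose effect differed between the stages, among them Cdkn1a (0.14 and 2.63), Sp3os (-0.89 and 1.08) and Rps21 (-0.61 and 0.16), while Zfp948 (0.90 and 0.81) lies near the line.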

How the data were processed

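The files hold read-pair counts per gene as deposited by the authors, made with featureCounts 2.0.1 with Ensembl 99 annotation of GRCm38 and no strand option, per the file headers, after HISAT2 2.2.1, per the submitters' processing notes. Gene symbols came from GENCODE M21 and matched 55230 of 55471 genes, and promoter windows came from RefSeq.

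The 12 L2C libraries were fitted together in edgeR 4.0.16 (R 4.3.3): filterByExpr by group, TMM, robust estimateDisp, glmQLFit and glmQLFTest, with a threshold of 0.05. Morula libraries were fitted separately, and the change between stages on all 24. SE is the absolute log2 fold change over the root of F. Shares were tested by exact permutation. Groups came from titles, since genotype labels of Zfp622 libraries count upward through other gene names. No 2 libraries were identical, and same-numbered libraries did not pair (r from -0.0146 to 0.104). The procedure was tested on simulated data.

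The genes described and all gene lists were chosen with earlier results of these data known. Named by rule were, among called genes with fully separate libraries and a higher mean of at least 5 CPM (Gm, Rik, pseudogenes and unnamed genes left out), the 12 largest rises, 12 largest falls, 10 smallest p, the 12 with the smallest largest adjusted p over the 8 leave-one-out fits, up to 4 called members per list and 4 p53 effectors. Other names were chosen after their values were seen, from the genes called in all 8 fits, the X-linked calls or the lists. Alternatives were DESeq2 1.42.0, DESeq2 size factors, total counts, no filter, no robust fit, 8 or 24 libraries, a replicate block, a fold threshold and each library left out. Removal of the length trend and the Y-linked covariate were added after seeing the data. So was a new adjustment of the main fit's p-values over autosomal genes alone, without Ttf1 and chromosome 2 distal to it. Its fold changes and spread remain those of the fit of all genes.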

Additional observations from a re-analysis of the deposited data

Results flagged for a closer look

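In 7 of 138 sets of 4 libraries 1 library lay far from the other 3, near the 1 in 20 that chance flags. Wild-type library 2 was the highest for Rps24 (596 CPM) and Rps7 (382 CPM), wild-type library 3 for Snora57 (18.9 CPM), and wild-type library 4 the lowest for Naxd (6.01 CPM). Knockout library 4 was the lowest for Dppa3 (3098 CPM) and the highest for Ocln (36.2 CPM), and knockout library 1 the lowest for Mdm2 (146 CPM).

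The Ttf1 effect differed between L2C and morula (interaction in edgeR, adjusted p at most 0.05) for 46 of the 66 genes named by rule. The values below are the morula effect minus the L2C effect on the log2 scale.

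Genes that stood higher at L2C and moved down were Tmc6 (-1.75), Tfcp2l1 (-1.62), G6pc3 (-1.24), Slc5a11 (-1.06), Naxd (-1.001) and Ocln (-1.14). X-linked genes of this kind were Hsd17b10 (-1.25), Porcn (-1.21), Hnrnph2 (-1.15) and Cenpi (-0.74). In the same direction went the replication gene Rrm1 (-0.87), the assembly factors Imp4 (-0.73) and Tbl3 (-0.71), the translation factor Eif3f (-0.49), and Ghitm (-0.61), Creld2 (-0.57), Psmb5 (-0.51) and Pitpnb (-0.48). Glrx, lower at L2C already, had -1.31.

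Genes that stood lower at L2C and moved up included the ribosomal protein genes Rps21 (0.76), Rps24 (0.72), Rpl35 (0.63) and Rps7 (0.61). Others of ribosome synthesis and translation were Zfas1 (1.02), Snora57 (1.16), Znhit6 (0.82), Brix1 (0.58), Taf1d (0.46), Eif5b (0.45), Eif2s2 (0.43) and Ttf1 itself (0.67). Oocyte and 2-cell genes were Bcl2l10 (1.81), Obox2 (1.64), H1foo (1.61) and Dppa3 (0.95). The rest were Sp3os (1.95), Ccdc173 (1.86), Lonp2 (1.46), Polh (0.66), Pfdn4 (0.61), Ndufc1 (0.55) and Ppig (0.40). The p53 effectors, with no call at L2C, had Cdkn1a at 2.49, Trp53inp1 at 1.86, Mdm2 at 1.67 and Ccng1 at 1.34.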

How the results depend on the processing

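Ttf1 kept its fall under every alternative that held it. The 258 calls became 761 by DESeq2, 769 without the filter, 482 with the 8 libraries alone, 389 with all 24 and 23 at a 2-fold minimum. They became 3 with the Y-linked covariate. With p-values of the main fit adjusted again over autosomal genes off Ttf1 and distal chromosome 2, they became 157. With single libraries left out they ran from 60 to 198. The 62 genes called in the same direction at both stages became 149 by DESeq2, 141 without the filter and 3 at 2-fold. They became 39 over that subset of autosomal genes and 2 with the covariate, and ran from 12 to 51 with single libraries left out. The 55 called list members became 120, 118, 3, 30 and 1 in the same order, 88 with the 8 libraries alone, and ran from 12 to 41. The replicate block gave 174 calls, 8 of them ribosomal protein genes in place of 16, and 15 of 65 genes named by rule lost or missed the threshold; the numbers do not pair the libraries. The cause was not tested, beyond fewer genes or libraries where the setting itself removes them. Signs turned for Cdkn1a (-0.48 with the covariate; -0.087 to 0.274 with single libraries left out, lowest without knockout library 2) and Mdm2 (-0.0080 with the length trend removed, -0.0059 to 0.0575 with single libraries left out, lowest without wild-type library 1), neither of them called, and for Eif2s3y, a called fall (0.092 with the covariate). Eif2s3y is itself among the Y-linked genes summed in that covariate, so its turn is partly built into the setting. Differences in share kept their sign, and none passed after adjustment.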

Other observations

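Gene classes outside the lists differed in their medians. Processed pseudogenes had a median log2 fold change of -0.19 over 1124 tested (15 called lower, 2 higher) and lincRNAs -0.09 over 864 (4 lower, 6 higher). Genes annotated as antisense had -0.06 over 496 (4 lower) and protein-coding genes 0.02 over 13010. Called lower were 1.33% of processed pseudogenes, 0.463% of lincRNAs and 0.806% of antisense genes, against 0.799% of all genes. Called higher were 0.178% of processed pseudogenes and 0.694% of lincRNAs, against 0.739% of all genes. Whether these shares differ was not tested. The 86 processed pseudogenes named after ribosomal proteins had a median of -0.22 with 3 called lower (3.49%, against 0.799% of all genes). By exon length the medians of the 8 equal bins ran from -0.18 in the shortest and -0.05 in the next to 0.05 in the sixth and 0.0091 in the longest, and against the Zfp622 knockout from -0.13 to 0.03.

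Aminoacyl-tRNA synthetases, glycolytic enzymes and sterol synthesis genes had positive medians of 0.10, 0.13 and 0.13 over 38, 25 and 27 members, and histones and chromatin variants had -0.17 over 25, with H1foo as the 1 call. Genes that rose from L2C to morula in the Zfp622 knockout, whose libraries are outside the main contrast, had a median of 0.04 in the Ttf1 knockout at L2C (5637 genes), and genes that fell there had -0.03 (8231 genes). The 7 Y-linked genes summed to 58.7 to 197 CPM (scaled by total counts) in the 4 wild-type morula libraries and to 59.8 to 153 in the 4 Ttf1 knockout morula libraries.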
